A study of Mus musculus with 24 samples.

Results

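The passage from the early injury at 8 h to 48 h after the first caerulein injection was followed in the pancreas of mice with 1 intact copy of Nr5a2. The comparison set 3 libraries taken at 48 h against 3 taken at 8 h, 6 of the 24 libraries of the series. These 6 libraries were picked by their genotype and time labels and not by a measured value. The comparison itself, the gene lists and the rule for naming genes were chosen with earlier results of these data known. All animals were C57BL mice, either Nr5a2 +/+ (called WT) or Nr5a2 +/- (called HET). The labels describe the +/- allele no further, so whether it is lost in all cells of the animal is not given in the sources used here. Each HET and WT animal of the 8 h and 48 h groups received 7 hourly intraperitoneal injections of caerulein at 50 ug per kg, and was killed 8 or 48 h after the first. HET and WT saline groups and groups killed at 24 h complete the 8 groups of 3 animals. Polyadenylated RNA of whole pancreas was sequenced. The deposited values are taken here as FPKM (fragments per kilobase of transcript and per sequencing depth), a unit per transcript length, although the header of the table names no unit. The sources used here give neither age nor sex of the animals.

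Caerulein is an analog of cholecystokinin, the gut hormone that drives acinar cells to release their digestive enzymes. In excess it causes a mild and reversible acute pancreatitis: acinar cells lose part of their secretory programme, switch on stress, immediate early and duct-like genes, and recruit leukocytes. In the days that follow, stellate cells lay down matrix, epithelial cells divide, and the acinar programme is rebuilt. NR5A2 is an orphan nuclear receptor that acts with PTF1A and RBPJL at digestive enzyme genes. The labels give no question for the 48 h against 8 h interval itself. It shows which genes had left their early level by 48 h in pancreata with 1 copy.

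Differences are group means of log2(FPKM + 1) at 48 h minus those at 8 h, given with their standard error (SE). They are hence negative where the level was lower at 48 h, and they understate changes of genes near or under 1 FPKM. Every adjusted p comes from limma fitted to all 24 libraries, with Benjamini-Hochberg adjustment over all genes of the comparison and a threshold of 0.05, two-sided. "Rose" and "fell" are used of genes past that threshold. The value of each library is given in the order of replicates 1, 2 and 3 of the group.

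Summed over all genes, the HET libraries held 460255 to 551933 FPKM at 8 h and 217205 to 279109 at 48 h, where replicate 3 had the lowest sum of all 24 libraries. The sums at 8 h count 8 acinar genes that are listed at 0 there and are treated below as missing. Their means in HET at 48 h ran from 1058 FPKM (Cel) to 6197 (Prss2). Sequencing depth is unknown, so no counting error can be given. Within groups the log2(FPKM + 1) values of library pairs correlated across genes at 0.947 to 0.949 at 8 h and 0.925 to 0.934 at 48 h. Replicate 3 at 48 h stood apart in acinar genes. A set of 22 acinar products made up 0.509% of its summed FPKM against 7.72% and 3.66% in replicates 1 and 2. Genes taken as missing in any group, as set out below, were left out of both sums. They include major enzymes, so this is not the share of all acinar products. Replicate 2 at 48 h carried more transcripts of fat and B cells: Cfd read 2.43, 39.4 and 1.31 FPKM in the 3 libraries, Adipoq 1.26, 10.4 and 0.612, and Cd79a 0.189, 5.06 and 0.184 (named after their values were seen). Y-linked transcripts were present in 2 of 3 libraries of each of the HET 8 h and HET 48 h groups. One WT library, replicate 2 at 48 h, held both Xist (20.5 FPKM) and Y-linked transcripts (summed 5.72 FPKM). Calls of named genes that end when 1 library is left out are marked where they are given, and those of the difference between genotypes at the end of that comparison.

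Nr5a2 (ENSMUSG00000026398), the gene whose copy number was reduced, was low at 8 h and higher at 48 h. It read 2.15, 1.88 and 2.1 FPKM at 8 h and 5.7, 3.75 and 2.64 FPKM at 48 h, so the groups did not overlap, and replicate 3 was the lowest at 48 h. The difference was 0.68 ± 0.19 (adjusted p = 0.00517). In WT it read 3.2, 2.25 and 2.78 FPKM at 8 h and 6.06, 4.08 and 6.2 at 48 h, a difference of 0.77 ± 0.19 (adjusted p = 0.00206). The test of the difference between genotypes gave -0.094 ± 0.27 (adjusted p = 0.941). HET saline libraries, prepared under an earlier library guide, read 9.09, 8.01 and 8.79 FPKM.

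Of 12862 genes tested, 3009 rose (23.4%) and 3679 fell (28.6%) between 8 h and 48 h in HET, 6688 in all. At least a 2-fold difference was reached by 1186 of the genes that rose and 1876 of those that fell. The split between the directions depends on how libraries are scaled to each other. With the deposited values 45.0% of the calls were higher and the median difference of all genes was -0.025. When each library was scaled to its total FPKM the median of all genes moved to 0.72 and 85.5% of calls were higher. When it was scaled to the total without acinar and Reg genes these were 0.67 and 85.7%, and with median-ratio scaling 0.079 and 53.1%. Total FPKM includes the zeros of genes treated as missing in a group, among them those of 8 acinar genes in HET at 8 h. The total without acinar and Reg genes leaves those 8 out. Of the 6688 calls, 106 were called in the opposite direction under total FPKM scaling and 68 under the total without acinar and Reg genes. Named genes whose call ends or whose direction turns under total FPKM scaling are therefore marked as such below. In bulk RNA, fewer cells of a type and less RNA per cell cannot be told apart.

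**Figure D1:**
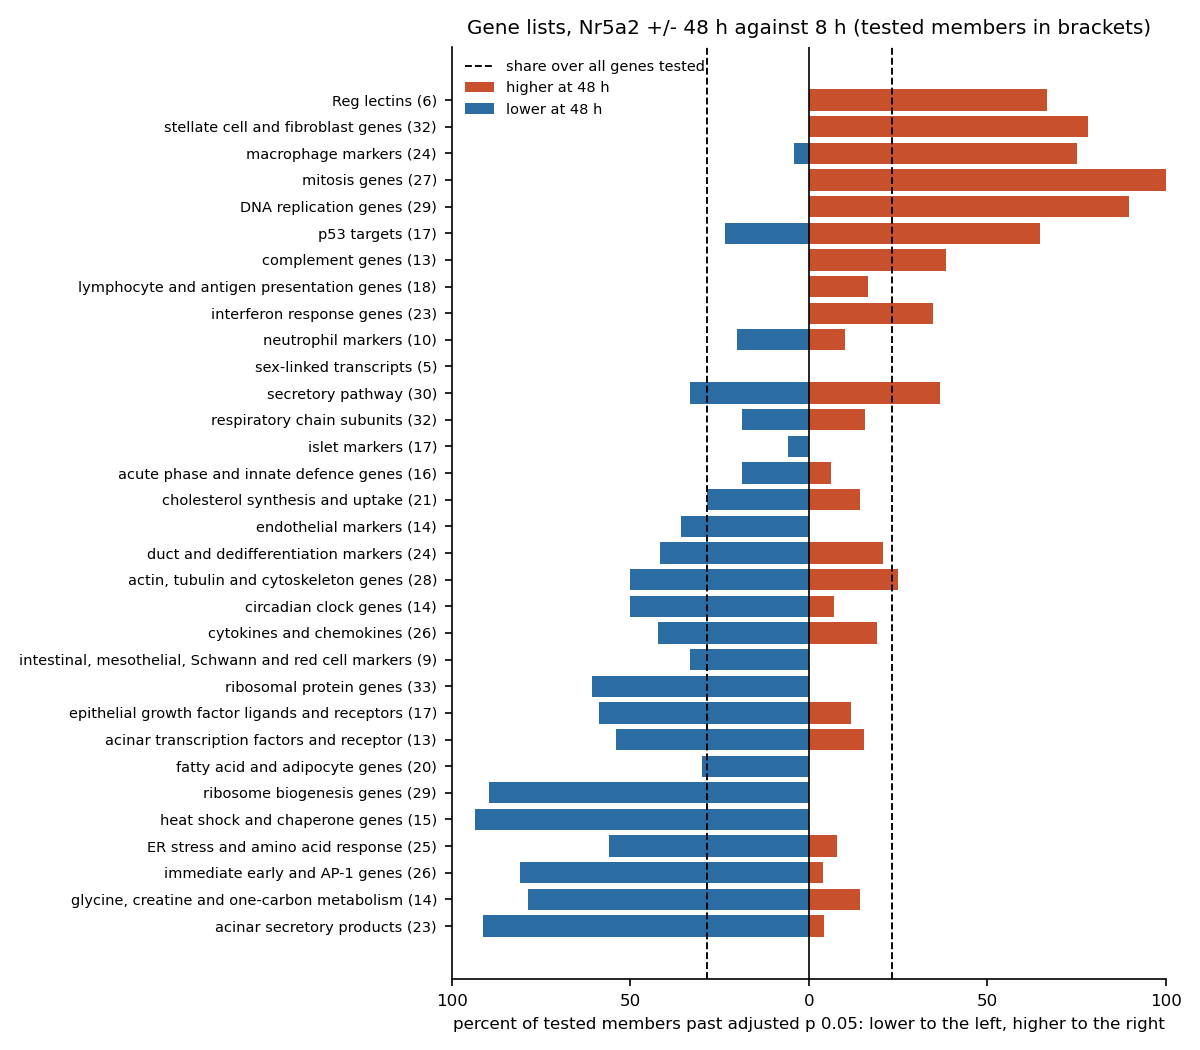
Share of the tested members of each of 32 gene lists that passed an adjusted p of 0.05 in HET at 48 h against 8 h, lower to the left in blue and higher to the right in red, with deposited scaling; dashed lines mark the shares over all genes tested, 28.6% and 23.4%. Mitosis, DNA replication, stellate cell and macrophage lists extend farthest right, and acinar product, heat shock and ribosome biogenesis lists farthest left; under total FPKM scaling the medians of the acinar transcription factor, duct, cytoskeleton, cytokine, acute phase, endothelial, cholesterol, clock, islet, ribosomal protein and mixed intestinal to red cell lists change sign.

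The products of the acinar cell, its digestive enzymes and the proteins it packs with them, fell together. Of 23 acinar secretory products that could be tested, 21 fell and 1 rose, with a median difference of -3.54, where all genes had 28.6% lower and 23.4% higher. Pla2g1b, the secreted pancreatic phospholipase, read 1400, 1320 and 1780 FPKM at 8 h and 162, 76.9 and 6.54 at 48 h. All 3 libraries at 48 h were below those at 8 h, and replicate 1 was the highest and replicate 3 the lowest of the 48 h libraries. The difference was -5.02 ± 0.72 (adjusted p = 9.50e-06). Klk1, tissue kallikrein, read 4770, 4040 and 4710 and then 671, 407 and 42.2 (-4.302 ± 0.62, adjusted p = 1.01e-05). Cuzd1, a zymogen granule membrane protein, read 679, 590 and 589 and then 77.5, 45.9 and 13.3 (-4.05 ± 0.46, adjusted p = 2.70e-06). The same order of the 48 h libraries, with replicate 3 far below the others, appears in each of these 3 genes. Pdia2, the pancreas-enriched protein disulfide isomerase and among the largest falls of all genes, had it too, with 1540, 1430 and 1580 FPKM at 8 h and 121, 47.6 and 3.77 at 48 h (-5.64 ± 0.71, adjusted p = 2.07e-06).

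Without replicate 3 at 48 h the acinar list had 20 lower and 1 higher with a median of -2.54, and under total FPKM scaling 20 lower with a median of -2.57. With the spread estimated from the 8 h and 48 h libraries alone 19 were lower. With the spread from the compared HET groups alone 16 were lower. Without replicate 3 the difference of Pdia2 was -4.3 (adjusted p = 8.01e-08). The member that rose was Reep6, an endoplasmic reticulum shaping protein (named after its values were seen), at 3.54, 2.8 and 2.17 FPKM and then 11.1, 8.2 and 7.33 (1.36 ± 0.31, adjusted p = 0.00115). The file lists 8 members at exactly 0 in all HET 8 h libraries although other groups held at least 100 FPKM (Cel, Cela1, Cela2a, Cpa1, Cpb1, Pnlip, Prss2 and Try5). These zeros were treated as missing estimates with no fold change. Every library listed Ctrb1, Amy2a5 and Amy2b at 0. Shares of summed FPKM were taken over genes with no missing group in any of the 8 groups, which left 22 acinar products. Enzymes such as Prss2, Cela1 and Cpa1 are in neither sum, so these are not shares of all acinar products. The share was 14.5%, 15.7% and 15.0% in HET at 8 h and 43.0% to 44.1% in HET saline. For these 22 products the share at 8 h lay below that in saline as values, and this difference was not tested. The HET saline and 24 h libraries were prepared under an earlier library guide than those at 8 h and 48 h. HET at 24 h had 6.69% to 7.66%. WT libraries had 14.4% to 18.4% at 8 h and 12.9% to 18.7% at 48 h.

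**Figure D2:**
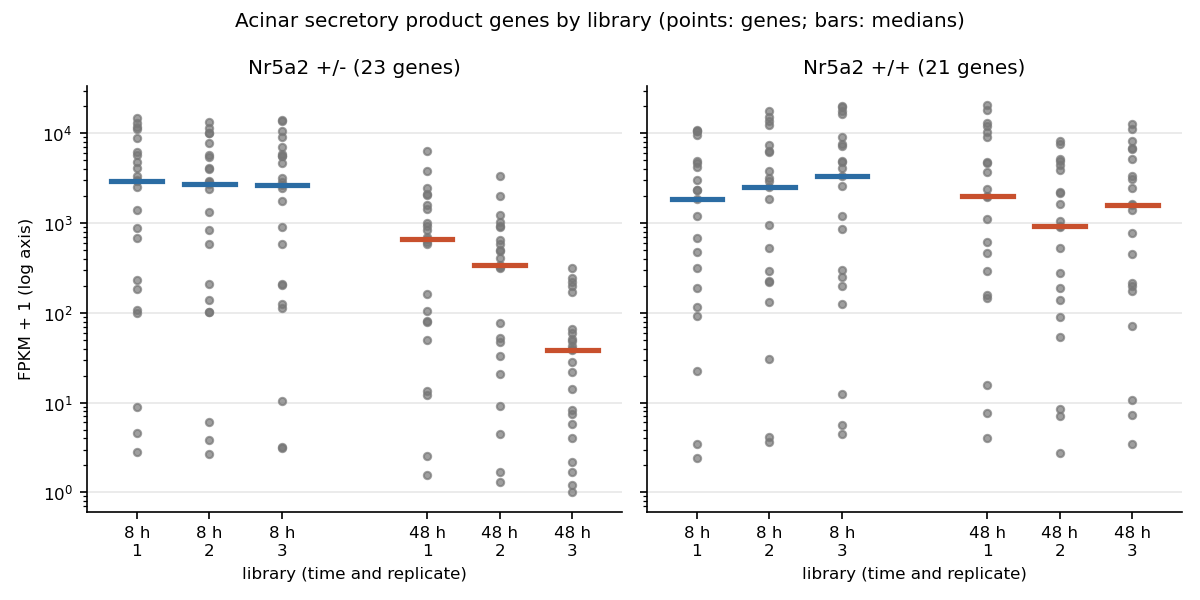
FPKM + 1 of acinar secretory product genes (grey points, 1 per gene; coloured bars, medians) in each 8 h and 48 h library, HET left and WT right, on a log axis; genes with a missing group are left out. In HET all 3 medians at 48 h lie below those at 8 h and replicate 3 lies lowest, whereas in WT the 8 h and 48 h medians overlap.

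Transcription factors of the acinar cell did not move as 1 group. Of 13 tested, 2 rose and 7 fell (median -0.93), but under total FPKM scaling 4 rose and 4 fell and the median turned to 0.047. Bhlha15 (MIST1), which organises the mature secretory apparatus, read 30.6, 31.7 and 30.7 FPKM at 8 h and 8.69, 4.58 and 0.263 at 48 h (-2.97 ± 0.46, adjusted p = 2.67e-05). Its 8 h libraries lay close together, while replicate 3 at 48 h was close to 0. Foxa3, a forkhead factor of gut endoderm, read 20.4, 16.8 and 18.4 and then 2.94, 2.45 and 2.12 (-2.48 ± 0.21, adjusted p = 8.10e-09). Gata6, a zinc finger factor needed for acinar maturation, read 7.6, 6.26 and 6.65 and then 2.57, 2.9 and 2.34 (-1.12 ± 0.15, adjusted p = 5.84e-06), a call that total FPKM scaling ended (-0.35, adjusted p = 0.167). Cckar went the other way. This receptor for cholecystokinin, and so for caerulein, read 3.54, 4.22 and 6.07 FPKM at 8 h and 73, 50 and 14.5 at 48 h (2.82 ± 0.40, adjusted p = 7.67e-06), with replicate 3 again the lowest at 48 h. HET saline libraries read 254, 203 and 222 FPKM for Cckar and 58.7, 43.7 and 59 for Bhlha15.

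Machinery of the secretory pathway was split. Of 30 genes of protein entry, folding and vesicle transport, 11 rose and 10 fell (median 0.15), where 23.4% of all genes rose and 28.6% fell. The share that fell was thus near that of all genes. Under total FPKM scaling 20 rose and 3 fell. Sec61a1, the channel subunit of the translocon, read 72.6, 65.4 and 64.3 FPKM at 8 h and 34.3, 32 and 34.1 at 48 h (-0.99 ± 0.15, adjusted p = 2.07e-05), a call that total FPKM scaling ended (-0.026, adjusted p = 0.923). Ssr4 of the translocon-associated complex read 198, 193 and 193 and then 69.8, 71.2 and 57.8 (-1.55 ± 0.24, adjusted p = 2.42e-05). Ostc, an oligosaccharyltransferase subunit, rose from 13.2, 13.4 and 12.9 to 28.8, 34.7 and 33.8 FPKM (1.23 ± 0.19, adjusted p = 1.57e-05). Tmed11, a cargo receptor of early secretory vesicles, had the largest fall of the list, from 28.4, 29.7 and 24.4 to 5.13, 1.78 and 0 FPKM (-3.46 ± 0.47, adjusted p = 4.71e-06), with replicate 3 listed at 0.

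The Reg lectins, secreted C-type lectins induced in acinar cells by injury, held the 3 largest rises among genes with an official symbol and no overlap between the groups. Of 6 tested, 4 rose and 0 fell (median 4.3). Reg3g read 2.42, 2.59 and 5.61 FPKM at 8 h and 874, 810 and 188 at 48 h (6.88 ± 0.83, adjusted p = 1.86e-06). Reg3a read 1.69, 3.37 and 9.02 and then 753, 833 and 93.3 (6.31 ± 1.15, adjusted p = 0.000189). Reg3b, the most abundant of the 3 per unit length at 48 h, read 82.7, 80.7 and 124 and then 7500, 6760 and 2110 (5.64 ± 0.89, adjusted p = 2.94e-05). In each the groups were far apart, and replicate 3 at 48 h was well below the other two. Reg2 read 158, 601 and 817 FPKM at 8 h and 7740, 6350 and 744 at 48 h, and here the groups overlapped, since replicate 3 at 48 h lay below replicate 3 at 8 h (2.96 ± 1.07, adjusted p = 0.0261), a call lost without 8 h replicate 1 or 48 h replicate 1 or 2 (adjusted p = 0.0996 to 0.127). Without replicate 3 at 48 h the list median was 5.13 and the difference of Reg2 was 4.04 (adjusted p = 0.00557).

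**Figure D3:**
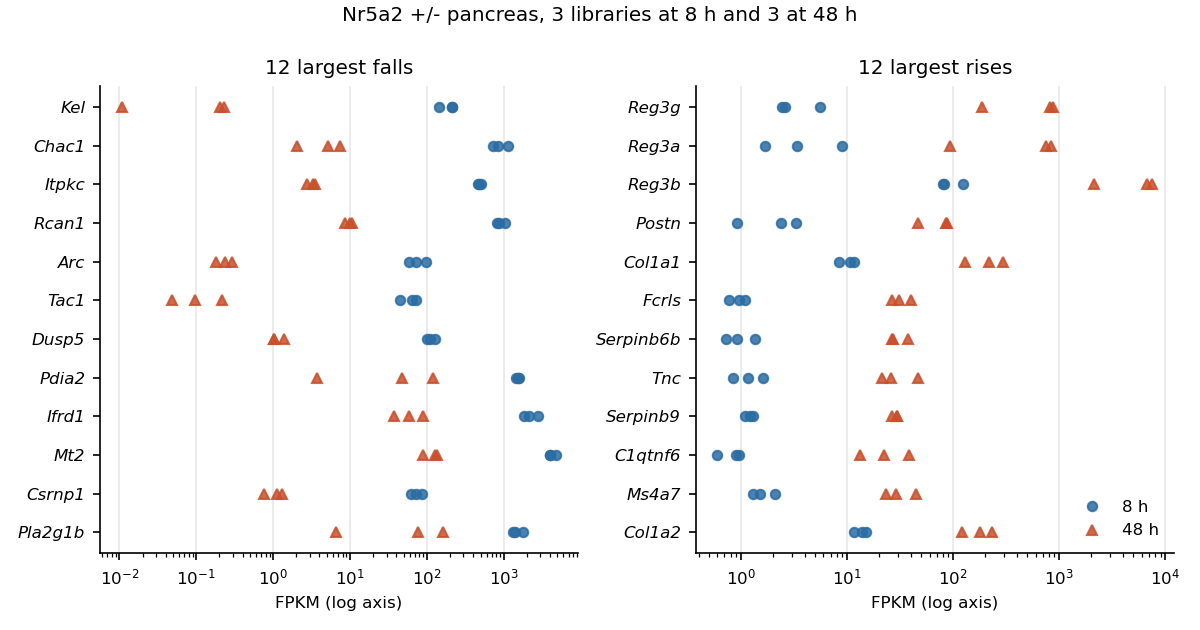
FPKM in each of the 3 HET libraries at 8 h (blue circles) and at 48 h (red triangles) on a log axis, for the 12 largest falls (left) and rises (right) by log2(FPKM + 1) among officially named genes whose higher group averaged 5 FPKM or more and whose groups did not overlap. Chac1 lies at 736 to 1130 FPKM at 8 h and at 2.04 to 7.49 at 48 h, and Reg3g at 2.42 to 5.61 and then 188 to 874.

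Immediate early genes, the first transcriptional answer to receptor signalling and injury, were high at 8 h and low at 48 h. Of 26 tested, 21 fell and 1 rose (median -2.26), and 16 fell under total FPKM scaling. Atf3, a stress-induced bZIP factor, read 235, 197 and 261 FPKM at 8 h and 12.8, 7.8 and 6.9 at 48 h (-4.55 ± 0.24, adjusted p = 1.78e-11). Fosl1 (FRA1), an AP-1 subunit, read 9.98, 8.72 and 10.7 and then 0.14, 0.0997 and 0.128 (-3.26 ± 0.12, adjusted p = 1.02e-13). Dusp5, a nuclear phosphatase of ERK, read 109, 100 and 126 and then 1.03, 1.03 and 1.38 (-5.71 ± 0.24, adjusted p = 6.76e-13). These 48 h libraries lay close together, replicate 3 included. Arc, best known as a synaptic immediate early gene, read 73.4, 57.8 and 97.6 and then 0.292, 0.238 and 0.183 (-5.93 ± 0.26, adjusted p = 1.30e-12). Csrnp1, an AXIN1-induced nuclear protein, read 87.4, 71.7 and 62.3 and then 0.755, 1.3 and 1.13 (-5.18 ± 0.50, adjusted p = 6.66e-08). The member that rose was Dusp6, a cytoplasmic ERK phosphatase (named after its values were seen), at 3.35, 3.36 and 4.28 FPKM and then 5.07, 6.21 and 6.77 (0.59 ± 0.19, adjusted p = 0.0127). It did not pass without replicate 3 at 48 h (0.51, adjusted p = 0.0562).

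Several of the largest falls were single genes outside the lists that were likewise high in every 8 h library and low at 48 h. Itpkc, a kinase of inositol trisphosphate, the calcium messenger released by cholecystokinin signalling, read 509, 468 and 479 FPKM at 8 h and 3.3, 2.75 and 3.49 at 48 h (-6.87 ± 0.29, adjusted p = 1.08e-12). Rcan1, a calcineurin regulator that calcineurin signalling itself induces, read 1030, 874 and 818 and then 10.1, 8.53 and 10.7 (-6.396 ± 0.17, adjusted p = 1.02e-15). Kel, a membrane metallopeptidase known as a blood group antigen, read 143, 213 and 212 and then 0.229, 0.0107 and 0.203 (-7.36 ± 0.29, adjusted p = 3.78e-13). The 2 groups lay far apart in all 3 genes. Tac1, the precursor of substance P, read 72, 64.3 and 45.4 and then 0.214, 0.0953 and 0.0489 (-5.76 ± 0.32, adjusted p = 3.36e-11). Ifrd1, a transcriptional coregulator, read 2130, 1860 and 2790 and then 89.5, 58.8 and 37.3 (-5.24 ± 0.33, adjusted p = 1.92e-10). Mt2, a metallothionein that binds zinc, read 4840, 4010 and 3970 and then 134, 89.2 and 127 (-5.198 ± 0.35, adjusted p = 5.10e-10). In HET saline, Itpkc read 3.66, 2 and 2.9 FPKM, Rcan1 5.33, 3.84 and 4.51 and Kel 1.38, 0.0608 and 0.756, all far under the 8 h level.

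Ligands and receptors of epithelial growth signalling followed. Of 17 tested, 10 fell and 2 rose (median -0.76), against 4 and 7 under total FPKM scaling, where the median was -0.044. Btc, the EGF-family ligand betacellulin, read 38.1, 34 and 24.6 FPKM at 8 h and 0.822, 0.887 and 1.05 at 48 h (-4.09 ± 0.23, adjusted p = 3.93e-11). Hbegf, the heparin-binding ligand of the same receptor, read 40.3, 28.4 and 27.6 and then 2.47, 1.8 and 1.71 (-3.46 ± 0.29, adjusted p = 1.03e-08). Their receptor Egfr read 47.8, 47.9 and 39.4 and then 6.31, 3.56 and 6.38 (-2.87 ± 0.28, adjusted p = 8.41e-08). So 2 ligands and the receptor were all lower, and none of the 3 had overlapping groups. Inhbb, an activin subunit, read 4.62, 3.95 and 2.99 and then 0.745, 0.962 and 1.52 (-1.23 ± 0.15, adjusted p = 1.13e-06). The 2 members that rose were Tgfb1 (0.69 ± 0.25, adjusted p = 0.0248) and Tgfb3 (1.26 ± 0.19, adjusted p = 1.32e-05), transforming growth factor ligands named after their values were seen. The call of Tgfb1 was lost without 8 h replicate 2 or 3 or 48 h replicate 2 or 3 (adjusted p = 0.0548 to 0.0991).

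Genes of endoplasmic reticulum stress and of the amino acid response, which meet in the factor ATF4, fell in part. Of 25 tested, 14 fell and 2 rose (median -1.71), and under total FPKM scaling 14 fell and 9 rose. Chac1, a glutathione-degrading enzyme induced by ATF4, had the largest fall of all named genes together with Kel. It read 841, 736 and 1130 FPKM at 8 h and 7.49, 5.18 and 2.04 at 48 h (-7.36 ± 0.46, adjusted p = 2.71e-10). Atf4 itself read 382, 334 and 373 and then 56.6, 50.8 and 39.2 (-2.88 ± 0.24, adjusted p = 7.51e-09). Asns, asparagine synthetase, read 457, 445 and 453 and then 64.2, 49.9 and 31.2 (-3.25 ± 0.26, adjusted p = 5.29e-09). All 48 h libraries of the 3 genes lay below all 8 h libraries, with replicate 3 the lowest. Herpud1, which helps to degrade misfolded proteins of the reticulum, read 267, 265 and 334 and then 32.9, 27 and 18.8 (-3.44 ± 0.27, adjusted p = 4.31e-09). Pdia4 (1.79 ± 0.32, adjusted p = 0.000107) and Canx (0.44 ± 0.17, adjusted p = 0.0329), folding proteins of the reticulum, were the 2 that rose and were named after their values were seen, and the call of Canx was lost without 8 h replicate 2 or 3 or 48 h replicate 1, 2 or 3 (adjusted p = 0.0531 to 0.0972). HET saline libraries read 10.6, 12.2 and 29.5 FPKM for Chac1 and 441, 228 and 291 for Asns.

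Promoter letters of 3 of these genes are shown because most members of the list share the same short elements. The sequences run from 250 bases before to 50 bases after the RefSeq gene start (build GRCm38.p6, whereas the submitters' processing notes name mm9), 5′ to 3′ on the gene's strand. Capitals mark CCACG, the core of the unfolded protein element, searched in the orientation of the gene and its reverse complement, and the NF-Y box CCAAT or its reverse complement ATTGG. Chac1 lies on the plus strand at chr2:119350992-119351291, Herpud1 on the plus strand at chr8:94386179-94386478 and Asns on the minus strand at chr6:7693160-7693459.
Chac1: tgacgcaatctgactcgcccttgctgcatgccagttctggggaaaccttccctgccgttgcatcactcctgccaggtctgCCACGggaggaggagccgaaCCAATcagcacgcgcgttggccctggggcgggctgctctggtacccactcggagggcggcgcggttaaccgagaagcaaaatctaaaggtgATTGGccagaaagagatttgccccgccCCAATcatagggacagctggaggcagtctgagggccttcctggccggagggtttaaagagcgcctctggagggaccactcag
Herpud1: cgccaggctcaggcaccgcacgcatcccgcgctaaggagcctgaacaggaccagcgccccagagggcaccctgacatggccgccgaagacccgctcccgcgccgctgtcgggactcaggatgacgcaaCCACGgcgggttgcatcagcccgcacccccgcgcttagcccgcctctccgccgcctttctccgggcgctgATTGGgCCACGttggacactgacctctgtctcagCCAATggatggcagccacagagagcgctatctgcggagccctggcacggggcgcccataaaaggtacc
Asns: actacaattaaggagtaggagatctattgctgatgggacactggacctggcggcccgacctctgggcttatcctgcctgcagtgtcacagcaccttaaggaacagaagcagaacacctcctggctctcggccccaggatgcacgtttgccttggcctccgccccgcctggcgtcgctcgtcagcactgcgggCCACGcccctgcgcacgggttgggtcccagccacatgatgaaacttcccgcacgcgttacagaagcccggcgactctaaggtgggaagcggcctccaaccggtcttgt
Promoters were found in RefSeq for 9386 of 12854 symbols tested. CCACG stood in 21 of 23 promoters of the list (91.3%) against 52.0% of all, and CCAAT in 20 of 23 (87%) against 42.3%. Neither was particular to this list. CCACG stood in 23 of 24 ribosome biogenesis promoters (95.8%), and CCAAT in 15 of 15 promoters of cholesterol synthesis and uptake genes (100%). Herpud1 held 2 CCACG and 2 NF-Y boxes, Chac1 held 1 and 3, and Asns held 1 CCACG and no NF-Y box in this window. These are matches of letters and no measure of binding.

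Amino acid transport and one-carbon genes were lower as well. Of 14 genes of glycine, creatine and one-carbon metabolism with their transporters, 11 fell and 2 rose (median -2.36), and 10 fell under total FPKM scaling. Slc7a5, the large neutral amino acid transporter, read 144, 133 and 136 FPKM at 8 h and 9.68, 7.49 and 5.11 at 48 h (-4.08 ± 0.19, adjusted p = 3.79e-12). Its partner chain Slc3a2 read 246, 216 and 223 and then 42.2, 31.7 and 27 (-2.75 ± 0.19, adjusted p = 8.44e-10). Slc7a11, the cystine importer that pairs with the same chain, read 16, 17.9 and 19.6 and then 1.22, 0.577 and 0.706 (-3.37 ± 0.19, adjusted p = 3.93e-11). Both transporters and the chain they share thus fell without overlap. Shmt2, the mitochondrial serine hydroxymethyltransferase, read 49.5, 43.8 and 46.3 and then 7.82, 7.16 and 5.94 (-2.58 ± 0.16, adjusted p = 2.12e-10). The 2 that rose, named after their values were seen, were Gatm, which makes the creatine precursor (1.06 ± 0.29, adjusted p = 0.00504), and Amt of the glycine cleavage system (0.86 ± 0.19, adjusted p = 0.000865).

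Cytosolic chaperones and heat shock proteins fell in 14 of 15 cases and rose in 0 (median -1.47), and under total FPKM scaling 8 fell and 1 rose. Hspa1a, the inducible HSP70, read 8.37, 7.56 and 11 FPKM at 8 h and 0.326, 0.358 and 0.36 at 48 h (-2.87 ± 0.25, adjusted p = 1.40e-08). It has a near-identical copy, Hspa1b, and how reads were shared between them is not given in the sources used here. Hspb8, a small heat shock protein, read 57.6, 64.1 and 71.4 and then 13.1, 13.6 and 9.01 (-2.35 ± 0.17, adjusted p = 9.16e-10). Its partner Bag3 read 14.4, 14 and 16.3 and then 4.3, 5.09 and 4.82 (-1.47 ± 0.17, adjusted p = 4.80e-07). Dnajb1, the HSP40 that works with HSP70, read 21.2, 20.1 and 25.7 and then 3.88, 5.06 and 4.33 (-2.103 ± 0.22, adjusted p = 1.77e-07). Libraries of each group agreed closely in all 4 genes.

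Genes that build ribosomes fell, and those for the ribosomal proteins themselves depended on scaling. Of 29 ribosome biogenesis genes 26 fell and 0 rose (median -1.29), against 12 and 3 under total FPKM scaling. Rrp12, which acts in export and maturation of ribosomal subunits, read 12.4, 10.3 and 9.67 FPKM at 8 h and 1.5, 1.65 and 1.14 at 48 h (-2.28 ± 0.12, adjusted p = 2.23e-11). Heatr1, a part of the processome of the small subunit, read 12.2, 10.4 and 10.7 and then 2.45, 2.15 and 2.43 (-1.85 ± 0.11, adjusted p = 9.44e-11). Nop58, a core protein of the small nucleolar complexes that methylate ribosomal RNA, read 40.6, 37.3 and 38.8 and then 8.11, 7.04 and 6.27 (-2.299 ± 0.17, adjusted p = 1.72e-09). The RNA helicase Ddx21 read 33.7, 33.9 and 31.8 and then 10.3, 8.65 and 9.32 (-1.71 ± 0.11, adjusted p = 3.19e-10). Every 48 h library of the 4 genes was below every 8 h library. Of 33 ribosomal protein genes 20 fell and 0 rose with deposited values (median -0.64), but 0 fell and 18 rose under total FPKM scaling (median 0.34). Rpl32 read 1100, 1090 and 1140 FPKM and then 669, 568 and 381 (-1.08 ± 0.28, adjusted p = 0.00279), and under total FPKM scaling its difference was -0.10 (adjusted p = 0.581). Without replicate 3 at 48 h 9 fell, and without replicate 1 at 8 h 13 fell. Rpl13, Rplp1 and Rpl4 fell by 0.87 to 1.04 on the log2 scale with deposited values. Total FPKM scaling ended all 3 calls, with Rpl13 at -0.067 (adjusted p = 0.644), Rplp1 at -0.013 (adjusted p = 0.946) and Rpl4 turned to 0.11 (adjusted p = 0.445). Ribosomal protein genes have many processed copies in the genome that can share reads.

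Keratins and other genes that mark duct cells and dedifferentiated acinar cells were mixed. Of 24 tested, 10 fell and 5 rose (median -0.51), where 28.6% of all genes fell and 23.4% rose. The share that rose was thus slightly below that of all genes. Under total FPKM scaling the counts turned to 5 lower and 9 higher (median 0.44). The keratins of simple epithelia carried the fall. Krt8 read 4670, 4120 and 4330 FPKM at 8 h and 267, 252 and 341 at 48 h (-3.94 ± 0.25, adjusted p = 2.38e-10). Its partner Krt18 read 3470, 3030 and 3150 and then 278, 258 and 340 (-3.46 ± 0.23, adjusted p = 3.44e-10). Krt19, the duct keratin, read 371, 355 and 307 and then 88.4, 103 and 114 (-1.75 ± 0.22, adjusted p = 2.10e-06). In these 3, replicate 3 at 48 h had the highest level of its group. Nes, an intermediate filament of progenitor, stellate and endothelial cells, read 33.1, 30.2 and 33 and then 13.6, 11.3 and 10.4 (-1.38 ± 0.17, adjusted p = 1.74e-06), a call that total FPKM scaling ended (-0.46, adjusted p = 0.099). The 5 members that rose were Clu and, named after their values were seen, Spp1 (2.31 ± 0.35), Anxa1 (1.42 ± 0.32), S100a6 (1.35 ± 0.22) and Vim (1.21 ± 0.32). Clu, the secreted chaperone clusterin, rose from 1150, 952 and 991 to 3080, 2850 and 4460 FPKM (1.72 ± 0.27, adjusted p = 3.34e-05). HET saline libraries read 87.9, 55.3 and 71.6 FPKM for Krt8 and 1260, 817 and 970 for Clu, so both 48 h levels were above those values.

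Cytoskeletal genes split in a similar way. Of 28 actin, tubulin and associated genes 14 fell and 7 rose (median -0.52), where 28.6% of all genes fell and 23.4% rose. The share that rose was thus near that of all genes. Under total FPKM scaling 7 fell and 13 rose (median 0.46). Actg1, cytoplasmic gamma actin, read 829, 776 and 899 FPKM at 8 h and 51.6, 57.6 and 82.3 at 48 h (-3.71 ± 0.21, adjusted p = 6.12e-11). Zyx, the focal adhesion protein zyxin, read 225, 206 and 188 and then 38.4, 40.4 and 38.1 (-2.37 ± 0.15, adjusted p = 2.12e-10). Tuba1c read 33.5, 30.8 and 34.2 and then 6.39, 6.96 and 7.12 (-2.11 ± 0.14, adjusted p = 3.79e-10), and Tubb4b, the beta tubulin, had a difference of -2.103 ± 0.17 (adjusted p = 7.16e-09). These 4 falls also passed under total FPKM scaling, at -2.74, -1.41, -1.22 and -1.15. Actin and tubulin genes belong to families with near-identical coding regions, so reads may have been shared.

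Proliferation genes rose in every library at 48 h. Of 27 mitosis genes tested, 27 rose and 0 fell (median 1.46), where 23.4% of all genes rose. Birc5 (survivin), a subunit of the chromosomal passenger complex, read 0.107, 0.367 and 0.75 FPKM at 8 h and 5.43, 8.11 and 7.67 at 48 h (2.53 ± 0.25, adjusted p = 9.27e-08). Top2a, the topoisomerase of dividing cells, read 0.46, 0.341 and 1.21 and then 7.1, 12 and 9.58 (2.67 ± 0.27, adjusted p = 9.39e-08). Cdca8 (borealin), of the same complex as Birc5, read 0.317, 0.286 and 0.578 and then 3.27, 5.33 and 4.29 (1.91 ± 0.23, adjusted p = 1.09e-06). Levels at 8 h were at most 1.21 FPKM in these genes, where the log2(FPKM + 1) scale understates the change. Mad2l1, a spindle checkpoint protein, read 0.108, 0.563 and 0.593 and then 4.84, 6.61 and 5.17 (2.21 ± 0.22, adjusted p = 8.86e-08). The mean log2(FPKM + 1) over the list was 0.319, 0.38 and 0.634 at 8 h and 1.76, 2.09 and 2.13 at 48 h, and 0.553, 0.839 and 0.94 in HET saline. Without replicate 3 at 48 h all 27 tested members still rose (median 1.4).

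DNA replication genes rose in 26 of 29 cases and fell in 0 (median 1.15), and in 23 of 29 without replicate 3 at 48 h. Mcm4, a subunit of the replicative helicase, read 0.577, 1.16 and 0.965 FPKM at 8 h and 4.45, 4.59 and 4.48 at 48 h (1.55 ± 0.19, adjusted p = 1.45e-06). Rrm1, the large subunit of ribonucleotide reductase, read 0.747, 0.736 and 0.97 and then 5.05, 6.38 and 6.4 (1.93 ± 0.21, adjusted p = 3.63e-07). Tk1, thymidine kinase, read 0.437, 0.458 and 0.821 and then 5.34, 6.37 and 6.35 (2.16 ± 0.26, adjusted p = 8.61e-07). The 3 libraries at 48 h differed little in each of them. Uhrf1, which carries DNA methylation through replication, read 0.118, 0.206 and 0.214 and then 2.73, 2.52 and 4.09 (1.78 ± 0.18, adjusted p = 1.37e-07).

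Promoters of 3 mitosis genes are shown because the list moved together and most of its promoters hold the 2 elements known from cell cycle genes, the CHR (TTTGAA) and the NF-Y box (CCAAT). Windows, build and strand are as above, and capitals mark TTTGAA or its reverse complement TTCAAA, and CCAAT or ATTGG. Cdk1, the mitotic kinase, is a list member that rose (2.84 ± 0.42, adjusted p = 1.39e-05) and was taken after its values were seen. Top2a lies on the minus strand at chr11:99024140-99024439, Cdk1 on the minus strand at chr10:69352863-69353162 and Birc5 on the plus strand at chr11:117848987-117849286.
Top2a: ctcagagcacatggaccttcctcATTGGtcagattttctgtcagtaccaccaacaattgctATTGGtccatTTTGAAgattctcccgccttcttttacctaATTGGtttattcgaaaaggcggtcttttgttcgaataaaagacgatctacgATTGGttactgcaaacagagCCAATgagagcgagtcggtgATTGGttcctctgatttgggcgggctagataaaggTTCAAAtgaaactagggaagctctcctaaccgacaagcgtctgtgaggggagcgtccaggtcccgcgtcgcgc
Cdk1: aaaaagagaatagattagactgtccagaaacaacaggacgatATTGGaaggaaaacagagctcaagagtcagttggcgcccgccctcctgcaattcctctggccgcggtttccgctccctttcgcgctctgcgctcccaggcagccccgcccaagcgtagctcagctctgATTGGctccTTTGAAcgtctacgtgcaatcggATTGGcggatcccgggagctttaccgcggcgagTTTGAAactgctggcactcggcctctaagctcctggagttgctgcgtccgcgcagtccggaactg
Birc5: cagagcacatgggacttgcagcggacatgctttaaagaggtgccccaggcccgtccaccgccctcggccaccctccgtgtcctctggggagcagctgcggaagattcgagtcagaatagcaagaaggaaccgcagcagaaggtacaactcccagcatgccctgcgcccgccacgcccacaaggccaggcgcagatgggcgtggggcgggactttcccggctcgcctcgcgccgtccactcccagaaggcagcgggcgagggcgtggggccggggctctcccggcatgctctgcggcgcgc
Top2a held 2 CHR and 6 NF-Y matches and Cdk1 held 2 and 3, whereas Birc5 held neither in these letters, which says nothing of the factors. The CHR letters stood in 16 of 22 mitosis promoters (72.7%) and in 2 of 24 replication promoters (8.33%), against 14.2% of all and 16.8% of the genes that rose. The NF-Y box stood in 19 and 13 of them (86.4% and 54.2%), against 42.3% of all. Neither was particular to the mitosis list. The CHR letters also stood in 5 of 6 Reg lectin promoters (83.3%). The NF-Y box also stood in 15 of 15 promoters of cholesterol synthesis and uptake genes (100%).

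Target genes of the tumour suppressor p53 went mostly up. Of 17 tested, 11 rose and 4 fell (median 0.86), where 23.4% of all genes rose and 28.6% fell. The share that fell was thus below that of all genes. Phlda3, a repressor of AKT, read 2.79, 2.4 and 5.32 FPKM at 8 h and 25.8, 27.1 and 20.5 at 48 h (2.54 ± 0.23, adjusted p = 3.11e-08). Ccng1, cyclin G1, read 8.71, 8.17 and 9.74 and then 60.7, 44 and 38.1 (2.28 ± 0.23, adjusted p = 1.31e-07). Bax, which permeabilises mitochondria in apoptosis, read 11.3, 11.1 and 11.3 and then 42.4, 39.4 and 36.9 (1.73 ± 0.17, adjusted p = 7.21e-08). Groups were far apart in each, and the 3 Bax values at 8 h were nearly the same. Sesn1, a stress-induced regulator of growth signalling, read 1.13, 1.33 and 1.14 and then 6.98, 10.8 and 7.1 (2.06 ± 0.23, adjusted p = 4.80e-07). The 4 that fell, named after their values were seen, were Cdkn1a (-2.096 ± 0.36), Gdf15 (-0.72 ± 0.28), Perp (-0.89 ± 0.23) and Aen (-1.51 ± 0.22). The first of these is the cell cycle inhibitor p21. Under total FPKM scaling Gdf15 and Perp turned to 0.046 and 0.063 with no call, and the call of Gdf15 was lost without 8 h replicate 1 or 3 or 48 h replicate 2 or 3 (adjusted p = 0.0661 to 0.156).

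Markers of macrophages rose. Of 24 tested, 18 rose and 1 fell (median 1.75). Ms4a7, a membrane protein of mature macrophages, read 1.51, 1.29 and 2.11 FPKM at 8 h and 23.5, 45 and 29.1 at 48 h (3.63 ± 0.37, adjusted p = 1.30e-07). Csf1r, the receptor that macrophages need to survive, read 5.38, 7.64 and 5.8 and then 27.1, 39.9 and 36.9 (2.29 ± 0.35, adjusted p = 1.88e-05). Mrc1, the mannose receptor of tissue macrophages, read 5.97, 7.89 and 6.91 and then 24.4, 31 and 42.1 (2.05 ± 0.34, adjusted p = 4.10e-05). Replicates 2 and 3 at 48 h tended to exceed replicate 1, with list means of 4.71, 5.52 and 5.5 on the log2(FPKM + 1) scale against 3.36, 3.85 and 3.7 at 8 h. Trem2, a lipid receptor of phagocytic macrophages, read 0.854, 1.99 and 3.12 and then 16.8, 29.2 and 26.6 (3.11 ± 0.39, adjusted p = 1.96e-06). Fcrls, an Fc receptor-like protein of tissue macrophages and microglia, was among the 12 largest rises, from 0.774, 1.1 and 0.955 to 30.8, 40.1 and 26.6 FPKM (4.09 ± 0.20, adjusted p = 8.69e-12). The member that fell was Retnla (-2.24 ± 0.57, adjusted p = 0.00286; named after its values were seen), a marker of alternatively activated macrophages that fat also expresses; under total FPKM scaling its adjusted p was 0.0703.

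Other leukocyte markers gave few calls. Of 10 neutrophil markers tested, 1 rose and 2 fell, shares below the 23.4% and 28.6% of all genes. S100a8 and S100a9 were among those not past the threshold. Mmp8, a neutrophil collagenase, read 3.25, 4.28 and 2.85 FPKM at 8 h and 0.105, 0.289 and 0.487 at 48 h (-1.78 ± 0.17, adjusted p = 3.71e-08). Trem1 read 1.87, 1.85 and 2.05 and then 0.111, 0.301 and 0.557 (-1.16 ± 0.20, adjusted p = 6.17e-05). No 48 h library held more than 0.557 FPKM of either. Csf3r, the receptor for the neutrophil growth factor G-CSF, read 1.8, 1.82 and 2.14 and then 3.01, 5.58 and 10.7 (1.21 ± 0.46, adjusted p = 0.0317), a call lost without 8 h replicate 1, 2 or 3 or 48 h replicate 2 or 3 (adjusted p = 0.0548 to 0.175). Of 18 lymphocyte and antigen presentation genes 3 rose, a share below the 23.4% of all genes, against 8 under total FPKM scaling and 9 under the total without acinar and Reg genes. With deposited values they were the antigen loading genes H2-DMa (1.58 ± 0.38, adjusted p = 0.00169) and H2-DMb1 (1.39 ± 0.35, adjusted p = 0.0024) and the leukocyte surface peptide Cd52 (1.57 ± 0.65, adjusted p = 0.0488). The call of Cd52 was lost without 8 h replicate 1, 2 or 3 or 48 h replicate 2 or 3 (adjusted p = 0.0654 to 0.134).

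Secreted signals of inflammation changed in both directions. Of 26 cytokines and chemokines 11 fell and 5 rose (median -0.54), where 28.6% of all genes fell and 23.4% rose. The share that rose was thus below that of all genes. Under total FPKM scaling 6 fell and 10 rose (median 0.29). The number that rose was 3 without replicate 3 at 48 h and 3 without replicate 1 at 8 h. Il6 read 5.13, 3.72 and 5.55 FPKM at 8 h and 0.368, 0.452 and 0.522 at 48 h (-1.99 ± 0.28, adjusted p = 8.40e-06). Lif, a cytokine of the same family, read 37.2, 24.9 and 22.2 and then 2.02, 1.6 and 3.6 (-3.104 ± 0.35, adjusted p = 4.77e-07). Ccl11, the eosinophil chemokine eotaxin, read 16.6, 17.9 and 30.7 and then 5.52, 6.08 and 4.33 (-1.81 ± 0.22, adjusted p = 1.09e-06). These early signals had left their 8 h level in all 3 libraries. Ccl8, a chemokine for monocytes, went up from 1.43, 3.91 and 2.43 to 23.5, 53.5 and 43.7 FPKM (3.503 ± 0.65, adjusted p = 0.000177). The other 4 that rose, named after their values were seen, were Cxcl12 (1.25 ± 0.35), Cxcl16 (1.29 ± 0.24), Ccl12 (1.41 ± 0.57) and Cx3cl1 (0.61 ± 0.21). The call of Ccl12 was lost without 8 h replicate 1 or 3 or 48 h replicate 2 or 3 (adjusted p = 0.119 to 0.133), and that of Cx3cl1 lost without 8 h replicate 1 or 2 or 48 h replicate 3 (adjusted p = 0.0553 to 0.118).

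Interferon response genes rose in 8 of 23 cases and fell in 0 (median 0.51), where 23.4% of all genes rose. Under total FPKM scaling 17 were higher. Fewer rose without single libraries: 4 without replicate 2 at 48 h (median 0.35), 5 without replicate 3 at 48 h and 5 without replicate 1 at 8 h. Bst2 (tetherin) read 10.2, 11.4 and 14.3 FPKM at 8 h and 29.8, 50.3 and 34.8 at 48 h (1.58 ± 0.27, adjusted p = 7.80e-05). PSMB9, an immunoproteasome subunit written in capitals in the file, read 1.18, 3.76 and 1.76 and then 6.94, 17.5 and 12.1 (2.02 ± 0.53, adjusted p = 0.00344). Tap1, the peptide transporter for antigen presentation, read 2.73, 5.04 and 3.32 and then 8.16, 14 and 13.5 (1.45 ± 0.41, adjusted p = 0.00587). Replicate 2 had the highest 48 h level in all 3, the library that also carried B cell transcripts, whose part in this was not tested. Ifit2 read 0.261, 0.363 and 0.207 and then 0.86, 1.77 and 1.24 (0.83 ± 0.22, adjusted p = 0.00391). Acute phase genes gave 3 lower and 1 higher of 16, shares below those of all genes, and their median of -0.19 turned to 0.74 under total FPKM scaling. Ptx3, a pentraxin of innate defence, read 34.6, 32.3 and 62.2 and then 2.1, 2.73 and 3.84 (-3.46 ± 0.32, adjusted p = 2.94e-08). Socs3, the feedback inhibitor of IL-6 signalling, fell by 1.58 on the log2 scale (adjusted p = 0.000883) and Serpina3n by 1.29 on that scale (adjusted p = 0.0261), and neither passed under total FPKM scaling (adjusted p = 0.163 and 0.613). The call of Serpina3n was also lost without 8 h replicate 2 or 3 or 48 h replicate 1 or 3 (adjusted p = 0.0533 to 0.101). Cp, ceruloplasmin, read 17.9, 19.9 and 16.6 and then 19.5, 30.6 and 40.2 (0.65 ± 0.25, adjusted p = 0.0393), a call lost without 8 h replicate 1, 2 or 3 or 48 h replicate 2 or 3 (adjusted p = 0.0511 to 0.215). Of 13 complement genes 5 rose and 0 fell, where 23.4% of all genes rose. The 5 were Clu (given above), C3ar1 (1.95 ± 0.25, adjusted p = 2.43e-06), Cd59a (1.13 ± 0.23, adjusted p = 0.000434), Cfp (1.39 ± 0.52, adjusted p = 0.0324) and, named after its values were seen, C5ar1 (0.90 ± 0.36, adjusted p = 0.0437). The call of Cfp was lost without 8 h replicate 1 or 2 or 48 h replicate 2 or 3 (adjusted p = 0.0548 to 0.107), and that of C5ar1 lost without 8 h replicate 1, 2 or 3 or 48 h replicate 2 or 3 (adjusted p = 0.0698 to 0.175).

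Genes of stellate cells and fibroblasts, the makers of fibrous matrix, rose. Of 32 tested, 25 rose and 0 fell (median 2.06), and 24 rose without replicate 3 at 48 h. Col1a1, the main chain of fibrillar collagen, read 8.4, 10.6 and 11.6 FPKM at 8 h and 129, 217 and 296 at 48 h (4.19 ± 0.35, adjusted p = 1.01e-08). Its partner chain Col1a2 read 11.6, 15.2 and 13.7 and then 120, 179 and 231 (3.57 ± 0.31, adjusted p = 1.28e-08). In both collagens replicate 3, the library poorest in acinar RNA, was the highest at 48 h. Postn, periostin, a matrix protein of activated fibroblasts, read 0.923, 2.41 and 3.32 and then 46.8, 87.1 and 85.9 (4.55 ± 0.36, adjusted p = 4.79e-09). Tnc, tenascin C, a matrix protein of wounds, read 1.16, 0.842 and 1.63 and then 26, 21.5 and 46.7 (3.81 ± 0.27, adjusted p = 8.37e-10). Bgn, the proteoglycan biglycan, read 15.8, 21 and 18.2 and then 134, 130 and 154 (2.87 ± 0.19, adjusted p = 3.86e-10). No library at 48 h came down to any 8 h library in these 5 genes. Lox, the enzyme that cross-links collagen, read 4.51, 5.11 and 5.03 and then 31.3, 35 and 40.8 (2.63 ± 0.20, adjusted p = 2.51e-09). Col5a1 had a difference of 3.54 ± 0.25 (adjusted p = 9.12e-10). The list means were 2.9, 3.02 and 3.22 at 8 h and 4.82, 5.02 and 5.11 at 48 h on the log2(FPKM + 1) scale, and 2.98, 3.33 and 3.35 in HET saline.

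The rest of the 12 largest rises were 3 genes of other kinds. Serpinb9, an inhibitor of granzyme B, read 1.22, 1.3 and 1.1 FPKM at 8 h and 29.7, 26.8 and 29.7 at 48 h (3.75 ± 0.31, adjusted p = 8.19e-09). Serpinb6b, a related serpin, read 0.723, 0.926 and 1.35 and then 26.3, 27.4 and 37.3 (3.96 ± 0.38, adjusted p = 5.81e-08). Both serpins were even within groups. C1qtnf6, a secreted C1q and TNF related protein, read 0.602, 0.905 and 0.96 and then 22.5, 13.3 and 38.5 (3.71 ± 0.74, adjusted p = 0.000401), with its lowest 48 h level in replicate 2. Serpin genes of these clades lie in families of close copies, which can share reads.

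**Figure D4:**
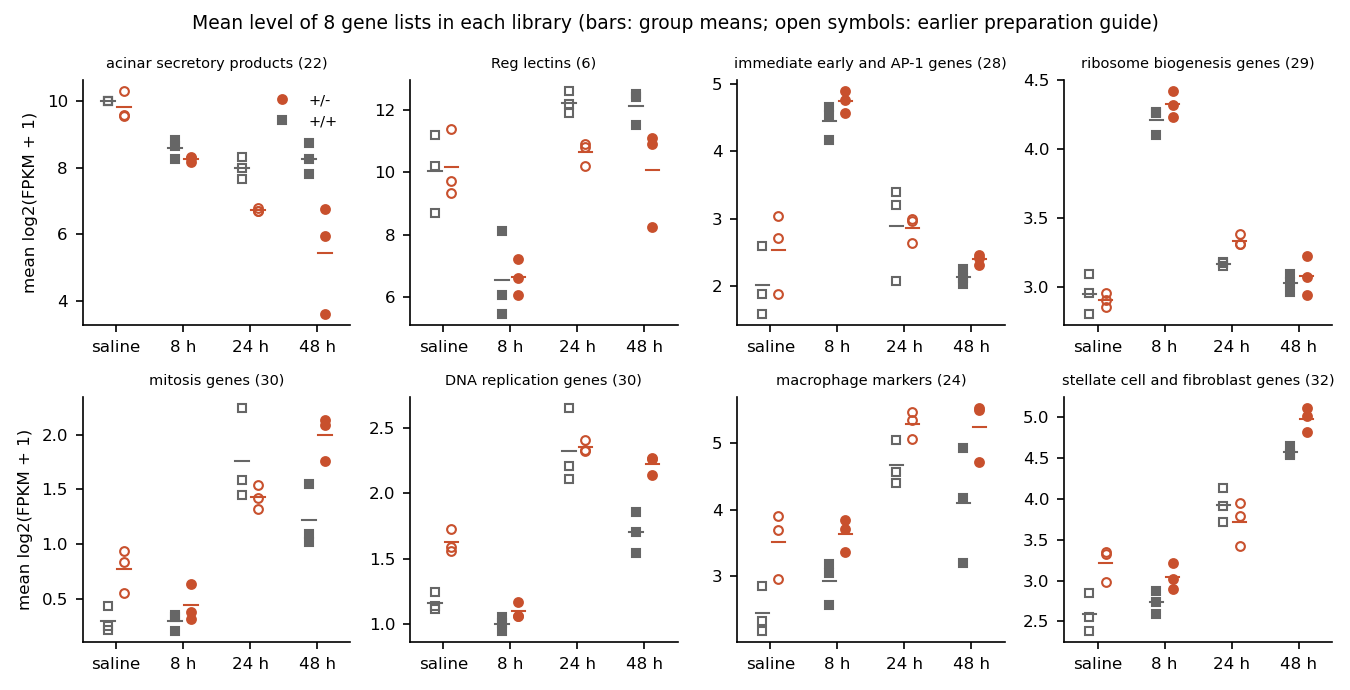
Mean log2(FPKM + 1) of 8 gene lists in each of the 24 libraries (grey squares, WT +/+; red circles, HET +/-; short bars, group means; numbers in brackets, genes averaged, of which 3 acinar products are listed at 0 throughout; filled symbols, v2 guide at 8 h and 48 h; open symbols, earlier guide in saline and at 24 h). In HET, immediate early and ribosome biogenesis lists lie lower at 48 h than at 8 h, and mitosis, replication, macrophage and stellate lists higher, without overlap between the 3 and 3 libraries.

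Endothelial, fat, islet and metabolic genes gave smaller or scaling-dependent results. Of 14 endothelial markers 5 fell and 0 rose (median -0.38), where 28.6% of all genes fell. Under total FPKM scaling 0 fell and 3 rose (median 0.38). With deposited values 2 fell without replicate 3 at 48 h, 3 without replicate 1 at 8 h and 2 without replicate 2 at 8 h. Flt1, a receptor for VEGF, read 5.21, 5.8 and 4.13 FPKM at 8 h and 2.21, 1.46 and 1.2 at 48 h (-1.21 ± 0.20, adjusted p = 4.18e-05). Kdr, the other main VEGF receptor, read 3.47, 2.73 and 2.97 and then 2.14, 1.69 and 1.39 (-0.57 ± 0.17, adjusted p = 0.00831), and turned to 0.12 (adjusted p = 0.671) under total FPKM scaling. Pecam1 (-0.59 ± 0.21, adjusted p = 0.0269) and Cdh5 (-0.72 ± 0.25, adjusted p = 0.023), adhesion molecules of endothelial junctions, also turned under that scaling, to 0.27 and 0.026, with no call. Plvap (-0.51 ± 0.21, adjusted p = 0.0451; named after its values were seen) was the fifth and turned to 0.40 with no call. The call of Plvap was lost without 8 h replicate 1, 2 or 3 or 48 h replicate 3 (adjusted p = 0.0755 to 0.32), that of Pecam1 lost without 8 h replicate 2 or 48 h replicate 3 (adjusted p = 0.0995 to 0.124) and that of Cdh5 lost without 8 h replicate 1 or 2 or 48 h replicate 3 (adjusted p = 0.0677 to 0.0863). Flt1 did not pass under total FPKM scaling (adjusted p = 0.0703). Of 20 fatty acid and adipocyte genes 6 fell and 0 rose (median -1.0), a share close to the 28.6% of all genes that fell. Under total FPKM scaling 0 fell and 3 rose, and without replicate 3 at 48 h 3 fell. Fabp4, the fatty acid binding protein of fat and capillaries, read 95.3, 103 and 73.3 and then 23, 44.1 and 14.9 (-1.81 ± 0.42, adjusted p = 0.00116), with replicate 2 the highest of the 48 h libraries, and did not pass under total FPKM scaling (adjusted p = 0.173). Fasn, fatty acid synthase, fell by 1.05 on the log2 scale (adjusted p = 0.0186), Pparg by 0.95 (adjusted p = 0.000538) and Me1 by 1.39 (adjusted p = 0.0024), and none of the 3 passed under total FPKM scaling (adjusted p = 0.811, 0.174 and 0.281). The call of Fasn was also lost without 8 h replicate 3 or 48 h replicate 3 (adjusted p = 0.0545 to 0.0951).

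Cholesterol synthesis and uptake gave 6 lower and 3 higher of 21 (median -0.25), neither share above that over all genes, and turned to a median of 0.47 under total FPKM scaling. Insig1, which retains the sterol sensor in the reticulum, read 15.6, 15 and 16.4 FPKM at 8 h and 8.98, 8.13 and 4.14 at 48 h (-1.101 ± 0.22, adjusted p = 0.000343). Sqle, squalene epoxidase, read 10.6, 8.43 and 8.17 and then 3.49, 3.29 and 2.1 (-1.36 ± 0.21, adjusted p = 2.36e-05). Other enzymes of the list differed in sign, since Msmo1 fell (-1.29 ± 0.25, adjusted p = 0.000262) and Ebp rose (1.43 ± 0.28, adjusted p = 0.000234). Under total FPKM scaling neither Insig1 nor Msmo1 passed (adjusted p = 0.365 and 0.163). Of 32 respiratory chain subunits 5 rose and 6 fell (median 0.11), both shares below the 23.4% and 28.6% of all genes, while 27 rose and 0 fell under total FPKM scaling. Without replicate 3 at 48 h 2 fell. Ndufa4 rose from 51.4, 50.3 and 55.1 to 98.4, 106 and 91.4 FPKM (0.90 ± 0.17, adjusted p = 0.000141), Ndufb3 by 0.86 ± 0.20, Sdhc by 0.67 ± 0.15 and Ndufs1 by 0.45 ± 0.10 (adjusted p = 0.00123, 0.000818 and 0.000749). Ndufb3 and Ndufs1 belong to NADH dehydrogenase, Sdhc to succinate dehydrogenase and Ndufa4 to cytochrome c oxidase.

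Clock genes gave 7 lower and 1 higher of 14 (median -0.53), turning to a median of 0.35 with 2 lower and 4 higher under total FPKM scaling. Nfil3, a bZIP repressor that is also induced by stress, read 121, 116 and 123 FPKM at 8 h and 4.24, 4.46 and 3.59 at 48 h (-4.57 ± 0.20, adjusted p = 1.24e-12). Nr1d1 (REV-ERB alpha) read 10.8, 8.63 and 7 and then 2.04, 2.51 and 1.71 (-1.66 ± 0.30, adjusted p = 0.000108). The cryptochromes Cry1 (-0.98 ± 0.16, adjusted p = 5.56e-05) and Cry2 (-0.74 ± 0.13, adjusted p = 0.000122) did not pass under total FPKM scaling (adjusted p = 0.126 and 0.531). The clock hour of each killing is not given in the sources used here, and its part was not tested. Of 17 islet markers only Pcsk1, a prohormone convertase, fell (-0.85 ± 0.22, adjusted p = 0.00348; 0.0826 under total FPKM scaling) and none rose, with a median of -0.17 that turned to 0.65 under total FPKM scaling. Globin and haem genes of red cells fell: Hbb-bs read 40.5, 23.4 and 22 and then 6.76, 5.52 and 4.85 (-2.099 ± 0.46, adjusted p = 0.000798), Hba-a1 fell by 1.52 on the log2 scale (adjusted p = 0.00349) and Alas2 by 0.62 (adjusted p = 0.0403). Neither Hba-a1 nor Alas2 passed under total FPKM scaling (adjusted p = 0.0566 and 0.176), and the call of Alas2 was lost without 8 h replicate 1 or 2 or 48 h replicate 1, 2 or 3 (adjusted p = 0.061 to 0.121). They are 3 of the 9 intestinal, mesothelial, Schwann and red cell markers tested, a share near the 28.6% of all genes that fell. None of the 9 rose, and the list median of -0.60 turned to 0.19 under total FPKM scaling. Globin copies are near-identical, so reads may have been shared. Of the 5 sex-linked transcripts none passed. Kdm5d read 0.798, 0.402 and 0 and then 1.1, 0 and 1.47, and Uty 1.37, 1.73 and 0 and then 2.31, 0.0221 and 2.57, high in 2 of 3 libraries at each time.

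The same interval in WT, which shares no library with the HET comparison, was set beside it. In WT 2897 of 12859 genes rose (22.5%) and 3527 fell (27.4%). Of the HET calls, 2120 higher (70.5% of those in HET, 73.2% of those in WT) and 2952 lower (80.3% and 83.7%) were called in the same direction in WT, and 0 and 16 in the opposite one. Across the 12859 genes the 2 sets of differences correlated at a Pearson r of 0.818, a description over genes that share libraries and are not independent replicates. The test of the difference between genotypes (the HET change minus the WT change) called 90 genes, 19 higher (0.148%) and 71 lower (0.552%), with 1631 at an unadjusted p under 0.05. Without HET 48 h replicate 3 it called 40 genes, 33 of them among the 90, and without WT 48 h replicate 2 it called 366. With the spread estimated from the 12 libraries of the v2 guide alone it called 6. In WT 45.1% of the calls were higher, against 55.0% under total FPKM scaling. The interaction had 21.1% of its calls higher with deposited values, and under total FPKM scaling 3158 calls with 96.6% higher.

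**Figure D5:**
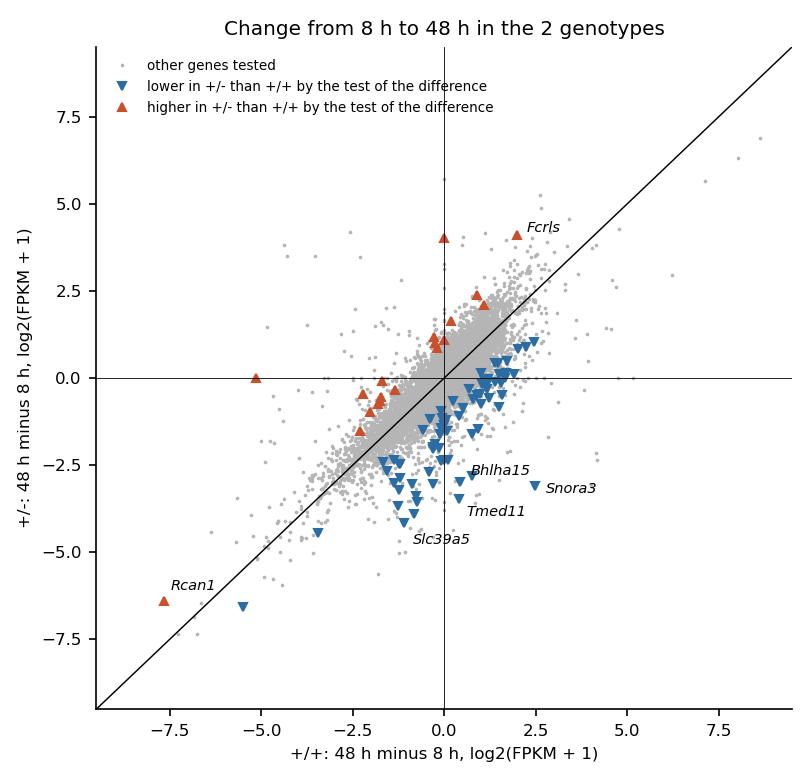
Difference between 48 h and 8 h in log2(FPKM + 1) for each gene tested, WT on the horizontal and HET on the vertical axis, with the line of equality; triangles mark the 90 genes past an adjusted p of 0.05 in the test of the difference (19 up, 71 down, with deposited scaling). Most genes lie along the line, and Bhlha15, Tmed11 and Slc39a5 lie below it with a fall in HET.

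Genes that the difference test called lower in HET included several of acinar cells. Tmed11 read 37.2, 48.3 and 48.1 FPKM at 8 h and 96.1, 35.6 and 59.5 at 48 h in WT, while in HET it had fallen to 5.13 FPKM or less. The difference between genotypes was -3.87 ± 0.66 (adjusted p = 0.0143). Bhlha15 read 26.2, 34.5 and 42.3 and then 60.8, 29.8 and 52 in WT, with a difference between genotypes of -3.39 ± 0.66 (adjusted p = 0.0242). In both genes the WT libraries at 48 h lay above all HET libraries at 48 h. Slc39a5, a zinc transporter of the acinar cell, read 67.4, 67.5 and 65.2 and then 7.09, 3.68 and 0.399 in HET, and 70.7, 104 and 98.2 and then 61.5, 28.2 and 41 in WT (-3.08 ± 0.59, adjusted p = 0.0242). Aqp12, the aquaporin of acinar cells, read 81.7, 78.9 and 77.7 and then 11, 5.34 and 1.06 in HET, and 93.5, 140 and 151 and then 106, 46.2 and 72.4 in WT (-3.08 ± 0.62, adjusted p = 0.0301). Hamp2, a hepcidin gene expressed in pancreas, read 20.1, 23.4 and 24.7 and then 6.82, 2.77 and 0.328 in HET, and 24.1, 42.7 and 28.2 and then 84.1, 33.6 and 52.1 in WT (-3.56 ± 0.72, adjusted p = 0.032). In all 5 genes HET replicate 3 at 48 h was the lowest library, and without it the call of Hamp2 was lost (-2.88, adjusted p = 0.051) while the other 4 passed. Snora3, a small nucleolar RNA, read 32.2, 11.3 and 13.8 and then 0, 8.42 and 0 in HET and 5, 0 and 0 and then 14.7, 13.3 and 3.55 in WT (-5.58 ± 1.05, adjusted p = 0.0234; -5.04, adjusted p = 0.0552 without HET replicate 3 at 48 h), and such short RNAs are poorly measured in polyadenylated libraries. None of the acinar secretory products passed this test, although their median was -2.98. In WT 1 of 21 of them fell (median -0.55).

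Other genes kept or gained more in HET. Fcrls read 1, 1.69 and 1.2 FPKM at 8 h and 5.49, 11.3 and 8.38 at 48 h in WT, so both genotypes rose and HET rose more (2.097 ± 0.29, adjusted p = 0.00209). Slamf9, a receptor of myeloid cells, read 1.25, 1.58 and 1.53 and then 5.81, 6.24 and 7.88 in HET and 1.34, 1.8 and 2.55 and then 1.52, 3.99 and 1.78 in WT (1.44 ± 0.32, adjusted p = 0.0425). Olfml3, a secreted olfactomedin protein, read 1.35, 1.89 and 1.68 and then 8.85, 16.9 and 13.8 in HET and 1.91, 1.55 and 2.01 and then 2.62, 6.89 and 3.92 in WT (1.503 ± 0.34, adjusted p = 0.0477). The 48 h libraries of HET exceeded those of WT in Fcrls. Rcan1 fell in both, to 10.1, 8.53 and 10.7 in HET and to 4.9, 5.91 and 4.8 in WT (1.26 ± 0.24, adjusted p = 0.0196). Sfn (14-3-3 sigma), an epithelial p53 target, read 16.7, 11.8 and 11.5 and then 13.7, 13.3 and 10.5 in HET and 10.8, 11.5 and 20.3 and then 3.39, 4.76 and 2.57 in WT (1.63 ± 0.35, adjusted p = 0.0396). Syt12, a synaptotagmin, read 9.29, 5.39 and 4.05 and then 4.11, 3.44 and 4.77 in HET and 8.19, 5.6 and 6.8 and then 0.409, 1.11 and 0.539 in WT (1.78 ± 0.40, adjusted p = 0.0465). For Sfn and Syt12 the change in HET did not pass (adjusted p = 0.827 and 0.202). Without HET replicate 3 at 48 h the difference of Fcrls passed, and the calls of Slamf9 (1.32, adjusted p = 0.118), Olfml3 (1.45, adjusted p = 0.127), Rcan1 (1.203, adjusted p = 0.0508), Sfn (1.74, adjusted p = 0.0552) and Syt12 (1.69, adjusted p = 0.128) were lost.

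Members of the lists that passed the difference test, beside Bhlha15 and Tmed11, came from several lists and were picked out after their values were seen. Pecam1 and Flt1 passed as lower in HET (-1.38 ± 0.30, adjusted p = 0.0422, and -1.27 ± 0.28, adjusted p = 0.0425), and Pecam1 rose in WT (0.79 ± 0.21, adjusted p = 0.0047). Insig1 also passed (-1.505 ± 0.31, adjusted p = 0.032), with 14.1, 13.3 and 16.2 FPKM at 8 h and 28.8, 16 and 16 at 48 h in WT. Gnmt, the glycine methyltransferase of the acinar cell, read 23, 20.9 and 20.5 and then 4.32, 2.03 and 0.265 in HET, and 24.4, 31.3 and 35 and then 39.4, 15.3 and 23.1 in WT (-2.74 ± 0.55, adjusted p = 0.0301). Edem1, which marks misfolded glycoproteins for disposal, read 34.6, 32.3 and 33.7 and then 16.8, 12.9 and 8.83 in HET, and 34.6, 41.8 and 38.9 and then 50.7, 28.6 and 37.9 in WT (-1.35 ± 0.30, adjusted p = 0.043). Both were lower at 48 h in every HET library than in any WT library. Lpl, lipoprotein lipase, stayed at 15.1, 17.4 and 11.3 in HET at 48 h and stood at 22.5, 31.8 and 23.5 in WT (-1.24 ± 0.26, adjusted p = 0.0378). S100a11, a calcium-binding protein of dedifferentiated epithelium, was the 1 member with a positive difference between genotypes, at 155, 223 and 208 in HET and 77.5, 112 and 74.7 in WT at 48 h (1.08 ± 0.23, adjusted p = 0.032). Total FPKM scaling ended the calls of Pecam1 (-0.66, adjusted p = 0.235), Flt1 (-0.72, adjusted p = 0.13), Insig1 (-0.79, adjusted p = 0.0558), Edem1 (-0.60, adjusted p = 0.0787) and Lpl (-0.47, adjusted p = 0.361). These 5 calls were also lost without HET replicate 3 at 48 h, at -1.24, adjusted p = 0.119 for Pecam1, -1.16, adjusted p = 0.122 for Flt1, -1.21, adjusted p = 0.0646 for Insig1, -1.12, adjusted p = 0.117 for Edem1 and -1.07, adjusted p = 0.104 for Lpl, as was that of S100a11 (1.03, adjusted p = 0.0867). Each of the 19 named calls of this test was lost under at least 1 alternative, so none of them held throughout. When each of the 12 libraries was left out in turn, 2 of the 19, Tmed11 and Fcrls, passed every time. The other 17 lost the call without 6 to 10 of the 12 libraries, with adjusted p of 0.0507 to 0.158 where it was lost. The keratin and cytoskeleton falls were larger in WT as values, at -5.27 ± 0.25 for Krt8 and -4.78 ± 0.21 for Actg1, but the differences did not pass (adjusted p = 0.0882 and 0.106). Mitosis and replication genes rose in 23 of 27 and 19 of 29 cases in WT (medians 0.84 and 0.76), and no member passed the test of the difference, whose list medians were 0.65 and 0.44. Immediate early genes fell in 21 of 26 cases in WT, and stellate cell genes rose in 26 of 32, against 21 and 25 in HET. Ribosomal protein genes fell in 0 of 33 cases in WT, and no member passed the test of the difference (list median -0.52).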

How the data were processed

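Whole-pancreas polyadenylated RNA of 24 mice was analysed, 3 per group. Per the labels' protocols, RNA integrity numbers were 6.6 to 9.2, and the 8 h and 48 h libraries were made under a v2 guide with 8 PCR cycles, the saline and 24 h libraries under an earlier guide with 10 (WT saline replicate 3 is in neither list). The submitters' processing notes list mm9, Cuffnorm, Cufflinks 2.0.2, Bowtie and CASAVA 1.8, in roles and order that are not stated. The authors deposited 1 table of 36806 genes, taken as FPKM from those notes and its values. How libraries were scaled to each other is not stated, and depth is unknown. Group labels come from the genotype, treatment and time fields. Nothing says how animals were housed or bred, so p-values measure the spread between these animals only.

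From the deposited FPKM, genes that reached 1 FPKM in 3 or more of 24 libraries were tested as log2(FPKM + 1) with limma 3.58.1 in R 4.3.3 (trend and robust empirical Bayes, 1 mean per group, 16 residual degrees of freedom, Benjamini-Hochberg, threshold 0.05), a procedure tested on simulated data. A group at exactly 0 in all 3 libraries while all libraries of some other group reached 100 FPKM was treated as missing, as were such groups of genes within 5 places in the annotation, a rule on neighbours added after seeing the data. In all 30 genes had such a group (86 gene and group pairs), 9 of them in HET at 8 h (the 8 acinar genes given and Casp9). Calls with a group listed at 0 numbered 27 of 6688.

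The comparison, the 32 gene lists and the naming rule were chosen with earlier results of these data known. The rule took Nr5a2. In each direction it took at most 12 genes with the largest difference among called, officially named genes without overlap between groups and with a mean of 5 FPKM or more in the higher group. It took up to 4 members per list with the smallest adjusted p, or 2 as values only where none passed, and up to 6 genes per direction from the difference between genotypes, without the rule on overlap. It named 144 genes, of which 1 is not reported here. Others are marked where they appear. Alternatives were another pseudocount, other filters, 3 scalings, other estimates of spread, zeros kept and each library left out. Promoters are from RefSeq (GRCm38.p6). Tables and plots were made in Python 3.11.15 (numpy 2.4.6, pandas 2.3.3, matplotlib 3.10.9).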

Additional observations from a re-analysis of the deposited data

Results flagged for a closer look

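These genes are listed because the change from 8 h to 48 h differed between HET and WT by the test of that difference (limma, adjusted over 12859 genes), as the HET change minus the WT change on the log2 scale. Lower in HET were Snora3 (-5.579), Tmed11 (-3.87), Hamp2 (-3.563), Bhlha15 (-3.392), Aqp12 (-3.082), Slc39a5 (-3.077), Gnmt (-2.739), Insig1 (-1.505), Pecam1 (-1.376), Edem1 (-1.35), Flt1 (-1.275) and Lpl (-1.236). Higher in HET were Fcrls (2.097), Syt12 (1.783), Sfn (1.631), Olfml3 (1.503), Slamf9 (1.437), Rcan1 (1.265) and S100a11 (1.082). All 19 kept their sign under every alternative tried, and each lost its call under at least 1. The acinar genes among those lower in HET were lowest in HET 48 h replicate 3. Without that library the test called 40 genes in place of 90, of which 33 were among the 90. Leaving out any other library gave fewer than 40, except HET 48 h replicate 1 (237) and WT 48 h replicate 2 (366). The count without replicate 3 thus does not measure its part in these calls, which was not tested.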

How the results depend on the processing

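The HET count of 6688 stayed within 1.5 times under all alternatives tried, from 4538 with a minimum of 5 FPKM to 8692 under total FPKM scaling, and from 5777 to 6213 when 1 library was left out. The WT count lay between 5696 and 6042 when 1 WT library was left out. The 90 genes of the difference between genotypes became 47 with a pseudocount of 0.1, 6 with scaling to the total without acinar and Reg genes, 3158 with scaling to total FPKM, 6 with the spread from the v2 libraries and 6 with the spread from the compared groups. Leaving out 1 library gave 12 (without HET 8 h replicate 3) to 366 (without WT 48 h replicate 2), and the cause was not tested. Of 158 named genes called in HET, 119 kept direction and call under every alternative, and 36 lost the call with the sign kept in at least 1. Another count is of sign changes. In 7 genes, some of them among the 36, the sign changed and the call ended under scaling to the total without acinar and Reg genes or to total FPKM. Under these 2 scalings, in that order, the values were 0.1206 and 0.1179 for Kdr, 0.03106 and 0.02555 for Cdh5, 0.2717 and 0.2727 for Pecam1, 0.1144 and 0.1103 for Rpl4, 0.05439 and 0.04602 for Gdf15, 0.06759 and 0.06314 for Perp, and 0.4044 and 0.4029 for Plvap, none past the threshold. Without depth, counting error cannot be separated from the spread between animals. No paired analysis was possible because the labels carry no replicate numbers and no pairing of animals, and the numbers used here only name libraries.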
